A study of Mus musculus with 9 samples.

Results

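Accessibility was followed at 36 genes of the actin cytoskeleton and of cell adhesion that are typical targets of serum response factor (SRF), here in mouse embryonic stem cells in which ERK signalling was switched on. The genes are actin, adhesion and contractile genes typical of the serum response, and the rule that ties sites to them uses no accessibility value. The genes themselves were chosen with earlier results of these data known. A site belonged to a gene when that gene was the nearest protein-coding gene body to the site's centre, within 100 kb, in RefSeq annotation of GRCm38. By this rule 81 of the 19165 sites in the authors' deposited table of changed sites belonged to 25 of the 36 genes. The assignment is a naming convention, since the nearest gene need not be the one a site acts on. The farthest site inside the limit was 88.9 kb from Fhl2 (log2 change -1.14), and the next one outside it 158 kb from Lpp (log2 change 1.33).

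ATAC-seq, in which the transposase Tn5 cuts and tags open DNA, was run on 9 libraries. In the treated cells 4-hydroxytamoxifen (4OHT, 250 nM) had been present for 1 h or 2 h, with 3 libraries at each time, and 3 control libraries came from untreated cells (0 h). All cells were of the E14tg2a line (129SV background) and stably carried cRAF-ErT2, a RAF kinase joined to a modified estrogen receptor domain that 4OHT releases. All were grown with serum, LIF and 2 µM Chir99021, a GSK3 inhibitor, and for the last 24 h in serum, LIF and 250 nM PD173074, an FGF receptor inhibitor. Serum was thus present on both sides of the comparison, and neither vehicle-treated cells nor cells without the fusion are among the libraries, so an effect of 4OHT itself cannot be told apart from one of ERK. The labels do not say which promoter drives the cassette or whether the line is a single clone.

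SRF is a transcription factor that binds the CArG box, a short element of A and T bases between CC and GG. It acts with ternary complex factors such as Elk1, Elk3 and Elk4, which ERK phosphorylates, and with the myocardin-related factors MRTF-A and MRTF-B, which are held back by free actin and released when actin is built into filaments. Many of its targets encode actin itself and the proteins that bundle, move or anchor actin filaments, and they are induced when serum is added to resting cells. SRF binding was not measured in these libraries.

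A CArG box stood in the promoter window of 7 of the 32 genes that have such a window in the RefSeq table (21.9%), against 307 of 17492 protein-coding genes in that table (1.76%). A window runs from 250 bases before to 50 bases after an annotated start, and both strands were searched. The genes were picked as SRF targets, so this share describes the choice and is no independent support for it. The stretches that hold the boxes are shown because the CArG box is the element that SRF binds. They are matches of letters, and whether SRF acts through them was not tested. Each reads 5′ to 3′ on the gene's strand (GRCm38.p6), with the box in capitals and up to 25 bases on either side.
Vcl (chr14:20929148-20929205, + strand): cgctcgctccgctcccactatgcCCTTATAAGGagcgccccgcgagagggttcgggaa
Fhl2, upstream start (chr1:43196823-43196882, - strand): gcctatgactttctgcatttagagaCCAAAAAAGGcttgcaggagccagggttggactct
Fhl2, inner start (chr1:43163962-43164017, - strand): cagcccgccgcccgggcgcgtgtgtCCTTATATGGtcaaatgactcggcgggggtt
Lima1 (chr15:99820162-99820221, - strand): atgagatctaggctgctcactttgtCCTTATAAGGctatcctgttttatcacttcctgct
Fermt2 (chr14:45530235-45530294, - strand): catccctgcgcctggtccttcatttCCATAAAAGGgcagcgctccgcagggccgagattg
Actg1 (chr11:120348551-120348610, - strand): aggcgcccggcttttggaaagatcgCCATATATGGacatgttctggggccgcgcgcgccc
Cnn2 (chr10:79988519-79988578, + strand): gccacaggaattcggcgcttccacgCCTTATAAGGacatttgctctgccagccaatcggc
Myl9 (chr2:156775278-156775337, + strand): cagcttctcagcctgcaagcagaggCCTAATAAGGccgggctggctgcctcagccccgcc

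The box of Vcl, Cnn2 and Lima1 was the same sequence, CCTTATAAGG. None of these 8 boxes overlapped a site of the authors' deposited table, and no member site overlapped any of the 37 promoter windows of the members. The share of all promoter windows that a listed site overlaps was not counted. Changed sites were rare near starts in general, with 3.16% of 12780 assigned sites centred within 1 kb of their own gene's start. The absence of overlap is therefore not read as particular to the members. The changed site nearest to a box, counted within the same gene, was 8.02 kb away at Lima1 and 10.4 kb away at the upstream start of Fhl2. At Actg1, Cnn2 and Myl9, shown after their values were seen, no changed site was assigned at all. A promoter that was open to the same degree on both sides would not be in the table, which lists changed sites alone.

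Other motifs searched in the same windows were TEAD (GGAATG), AP-1 (TGANTCA) and ETS (CCGGAAG), each on its own, so that matches of different motifs may overlap. TEAD letters were in a window of 11 of the 32 members (34.4%), against 15.5% of all 17492 genes. AP-1 and ETS letters were in 3 members each (9.38%), against 8.12% and 12.9% of all genes. The 4 shares are plotted side by side in the chart of motif matches.

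**Figure D1:**
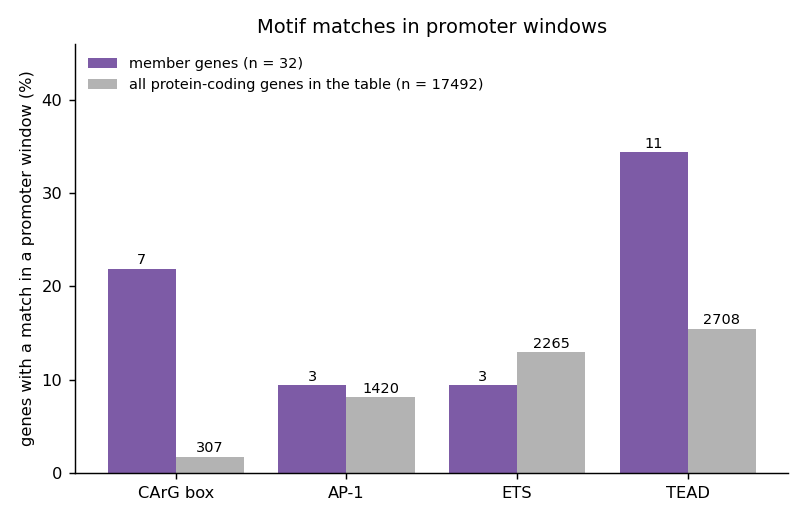
Share of genes (%) with at least 1 match in a promoter window of 300 bases, for the 32 members (purple) and all 17492 protein-coding genes in the RefSeq promoter table (grey), with the number of genes above each bar. The CArG box stood in 21.9% of members and 1.76% of all genes, and the TEAD letters in 34.4% and 15.5%.

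The question put to the authors' deposited table was in which direction accessibility of these genes changed after 4OHT. Every listed site had passed the authors' test at an FDR of 0.01 or less, so a listed site either rose or fell. A log2 change is the 4OHT level minus the control level, and a level is the log2 of mean normalized reads. The mean was taken to cover 6 libraries for 4OHT (1 h and 2 h together) and 3 for control, and the table gives neither a value per library nor a standard deviation. Read depth is unknown, and the p and FDR values are the authors'. In such bulk libraries, fewer cells with an open site cannot be told apart from less opening per cell.

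Accessibility rose at 55 of the 81 member sites and fell at 26. The share that rose was 67.9%, beside a background of 54.6% over all 16454 listed sites given to a protein-coding gene. The median log2 change over member sites was 0.99 (quartiles -0.71 and 1.46), beside 0.68 (-0.90 and 1.5) over all those sites. Among member sites that rose the median was 1.27 (quartiles 0.98 and 1.73), and among those that fell it was -0.87. Over all assigned sites these medians were 1.43 and -0.93. The share of gains was thus above the background, while the median gain was below it. No test was run on the list, since sites of 1 gene share their neighbourhood. The list was also drawn up with earlier results of these data known, so the comparison is a description.

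The share that rose was also above the background when counted in other ways. Among sites with a change of at least 1 in size, 39 of 46 member sites rose (84.8%), against 69.2% of all assigned sites. With only the site of smallest authors' p kept for each gene, 18 of 25 rose (72%), against 57.4%. At sites with a mean log2 level over 7, 29 of 43 member sites rose (67.4%), against 47.3% of assigned sites, whereas at levels of 5 to 7 the shares were closer, 23 of 35 (65.7%) and 61.0%. This split by level was chosen after the values were seen.

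**Figure D2:**
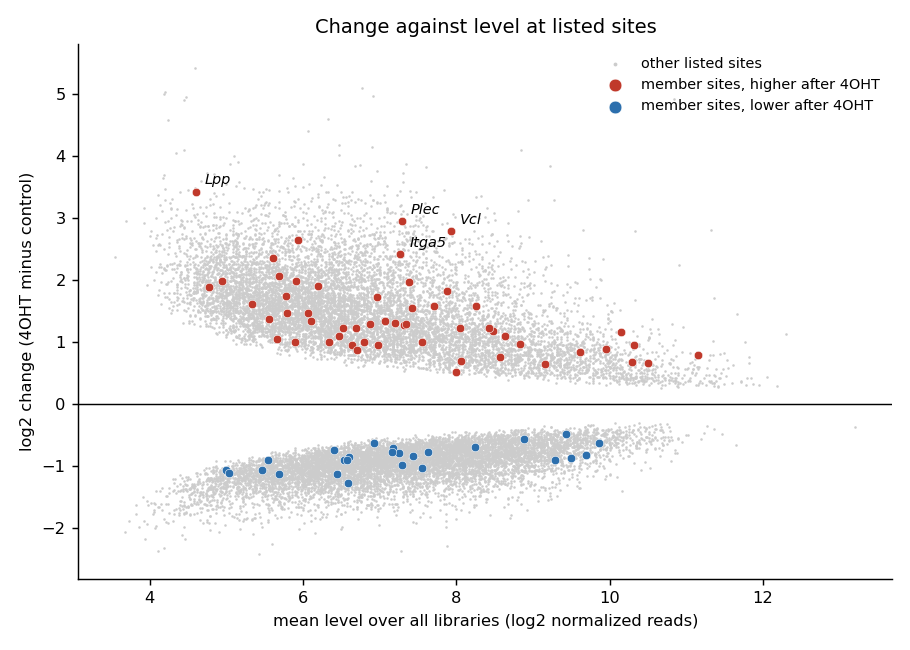
Log2 change (4OHT minus control) against the mean log2 level over all libraries for the 81 member sites (red, higher after 4OHT; blue, lower after 4OHT) and the other listed sites (grey). The labelled red points are the largest gains of Lpp (3.42), Plec (2.94), Vcl (2.79) and Itga5 (2.41), and the gap around 0 is where sites did not pass the authors' test.

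Counted by gene, 25 of the 36 members had a listed site (69.4%), beside 36.4% of the 21900 protein-coding genes. Of the 25, 14 had only sites that rose (56%, background 44.6% of genes with a site), 5 had only sites that fell (20%, background 30.9%) and 6 had both. All 36 members had a median body of 28.4 kb, against 17.1 kb for all protein-coding genes, so the 36.4% is not matched for length. The members with a site were long genes, with a median body of 69.1 kb, against 40.3 kb for all genes with a site. The 11 without a site were Actg1, Acta2, Tpm2, Cnn2, Tagln, Myl9, Tln1, Zyx, Cfl1, Dstn and Cap1, and their bodies were short, with a median of 9.86 kb and at most 31.1 kb. Inside the gene bodies of the members lay 58 listed sites over 2.65 Mb, or 21.9 per Mb, against 8.97 per Mb over all protein-coding bodies. How much of this follows from the number of open sites in these genes was not tested, as unchanged sites are not in the table used here.

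**Figure D3:**
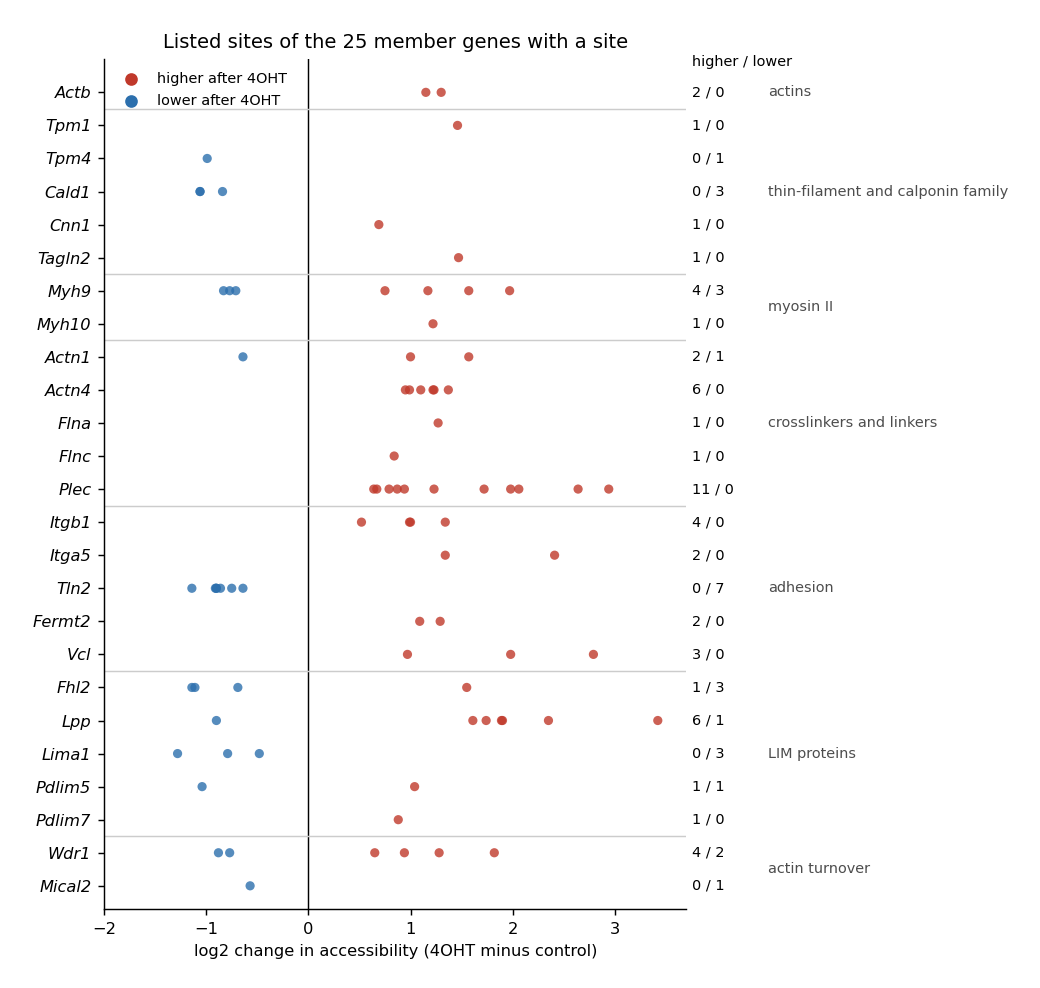
Log2 change of every listed site (1 point per site) for the 25 members that had a site, grouped by role, with the numbers of sites higher and lower after 4OHT at the right. All 11 points of Plec and all 6 of Actn4 lie to the right of 0, and all 7 of Tln2 to the left.

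The crosslinkers and linkers, which bind actin filaments to each other or to other structures, rose almost throughout: 21 of their 22 sites were higher after 4OHT, with a median log2 change of 1.16. Without Plec, which held 11 of them, 10 of 11 were higher. Plec encodes plectin, a giant linker of intermediate filaments to actin and to adhesions, and all 11 of its sites rose, by 0.64 to 2.94. Its first site by the authors' p, at chr15:76172218-76172598, had a log2 level of 7.36 after 4OHT and 5.64 in control cells in the authors' deposited table (a log2 change of 1.72, FDR 2.13e-04). The largest gains stood just outside the low-coordinate end of the gene. There the site at chr15:76169904-76170554 had levels of 7.79 after 4OHT and 4.85 in control cells (log2 change 2.94, 7.67-fold, FDR 0.00378 in the authors' deposited table), and the site at chr15:76170690-76170875 had levels of 6.41 after 4OHT and 3.77 in control cells (2.64, authors' FDR 0.00899). With the sites at 76172218 and 76173153, which rose by 1.72 and 1.98, these 4 sites followed each other at gaps of 0.554, 1.626 and 0.838 kb between centres. The strand of Plec is not in the tables used, so this end was not called a start or an end.

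In the middle of Plec 3 sites of high level rose less. The site at chr15:76195452-76196992 had a log2 level of 11.38 after 4OHT and 10.59 in control cells in the authors' deposited table, or 2670 and 1540 normalized reads, a change of 0.79. Its neighbours at 76197694 and 76199394 rose by 0.67 and 0.64. A site 48.3 kb into the gene, of low control level (4.04), rose by 2.06. The smallest gains at Plec were thus at the sites with the highest levels. Of 1770 other protein-coding genes of like length (a ratio of at most 5 to 4), 1 had at least as many listed sites and 769 had none. Counts by like length were made only for members with at least 6 sites, so a high count was a condition of the choice. The counts of Actn4 and Wdr1 were reached by 29 of 1621 and 19 of 2340 genes of their lengths.

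Actn4 and Actn1 encode the alpha-actinins, which crosslink filaments into bundles. All 6 sites of Actn4 lay inside the gene and rose within a narrow range, 0.95 to 1.37. The first by p, at chr7:28903562-28904075, had levels of 7.05 after 4OHT and 6.06 in control cells in the authors' deposited table (a log2 change of 0.99, FDR 9.06e-05). Actn1 had 2 sites that rose and 1 that fell. Its site at chr12:80291719-80292423, 31.7 kb outside the gene body, had levels of 8.62 after 4OHT and 7.05 in control cells (log2 change 1.57, FDR 2.07e-04 in the authors' deposited table), while a site inside the gene changed by -0.64. The filamin genes, whose products join filaments at wide angles, had 1 site each, inside the gene. At Flna (chrX:74232760-74233489) the levels were 7.63 after 4OHT and 6.36 in control cells (log2 change 1.27, authors' FDR 1.24e-04), and at Flnc (chr6:29435070-29435764) they were 9.85 and 9.01 (0.84, authors' FDR 0.00816).

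Among adhesion genes, 11 sites rose and 7 fell, and the direction went by gene. All 11 sites of Vcl, Itga5, Itgb1 and Fermt2 rose, and all 7 of Tln2 fell. The smallest p of any member site was at Vcl, which encodes vinculin, the protein that ties talin to actin at strained adhesions. Its site at chr14:20973690-20974179, inside the gene and 44.5 kb past the start, had a log2 level of 8.41 after 4OHT and 5.62 in control cells in the authors' deposited table. In normalized reads that is 340 and 49.2, a 6.92-fold gain (log2 change 2.79, FDR 1.83e-10), and the site ranked 129 by p among the 19165 listed sites. The other Vcl sites rose by 1.98 inside the gene and by 0.97 at 37.1 kb before its body.

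Itga5 and Itgb1 encode the integrin chains that together form the fibronectin receptor. At Itga5 both sites lay before the start. The nearer, at chr15:103370492-103370825 and 3.87 kb from the start, had levels of 7.72 after 4OHT and 5.31 in control cells in the authors' deposited table (a log2 change of 2.41, 5.31-fold, FDR 2.01e-08), and the other rose by 1.34. Itgb1 had 4 sites, 3 inside the gene, with gains of 0.52 to 1.34. Its first by p was chr8:128690589-128690789, with levels of 6.43 after 4OHT and 5.09 in control cells (1.34, FDR 1.13e-04 in the authors' deposited table). Fermt2 encodes kindlin-2, which activates integrins together with talin, and both of its sites rose inside the gene. The first, chr14:45503891-45504301, had levels of 8.92 after 4OHT and 7.83 in control cells in the authors' deposited table (1.09, FDR 6.18e-04).

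Talins couple integrins to actin. Tln1, the main talin of non-muscle cells, had no listed site, and Tln2, its paralog, had 7, all lower, with changes of -0.64 to -1.14. The first by p, chr9:67549261-67550340, had a level of 8.92 after 4OHT and 9.82 in control cells in the authors' deposited table (a log2 change of -0.90, FDR 9.46e-07). The largest loss, chr9:67301586-67301839, had levels of 5.20 after 4OHT and 6.34 in control cells (-1.14, authors' FDR 0.00425). Of the 7 sites, 6 lay inside the gene and the other was 36.7 kb outside it. The Tln2 sites were spread over 433 kb, against 56.6 kb for those of Plec. Tln2 is 417 kb long, and of 254 other genes of like length 33 had at least as many listed sites. Zyx, which encodes the adhesion protein zyxin, had no listed site.

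**Figure D4:**
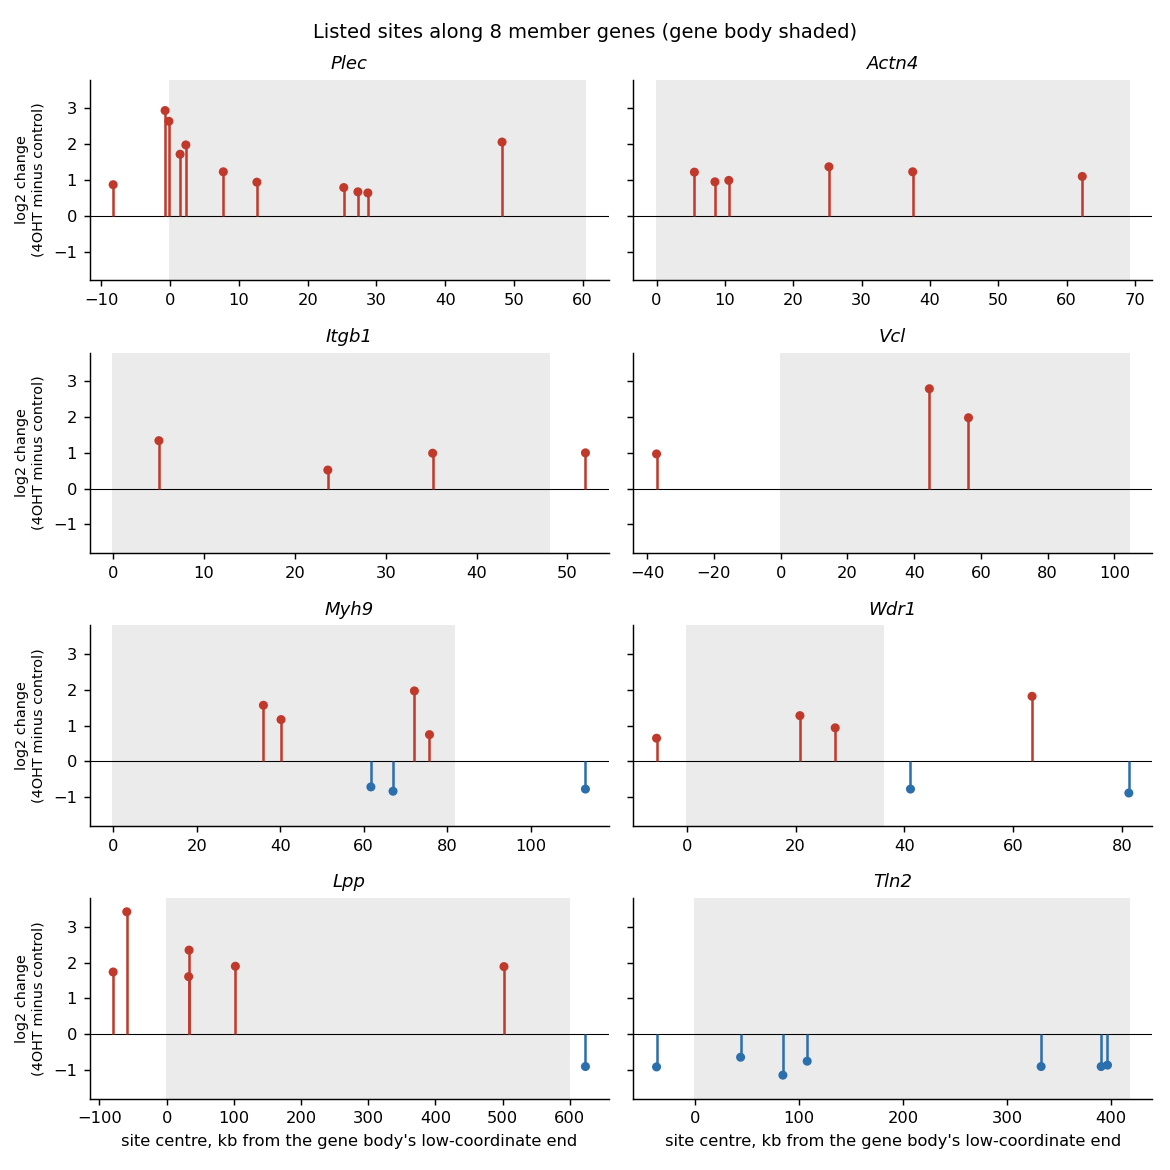
Log2 change (4OHT minus control) of each listed site against its distance in kb from the low-coordinate end of the gene body, for 8 members, with the gene body shaded (red, higher after 4OHT; blue, lower after 4OHT). Plec shows its 4 sites with gains of 1.72 to 2.94 around 1 end, and Myh9, Wdr1 and Lpp hold both directions. Tln2 shows 7 losses, 6 of them inside the gene.

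Genes for LIM-domain proteins, which bind to actin bundles and adhesions, went both ways, with 9 sites that rose and 8 that fell. Of the gains, 6 were at Lpp, a zyxin relative, which had 1 loss. Its first site by p, chr16:24426558-24426937, had levels of 6.06 after 4OHT and 3.71 in control cells in the authors' deposited table (a log2 change of 2.35, 5.1-fold, FDR 1.96e-05). The largest gain of all member sites was 59.3 kb before Lpp, at chr16:24333950-24334121, with levels of 5.12 after 4OHT and 1.70 in control cells (3.42, FDR 3.17e-04 in the authors' deposited table). That control level equals 3.25 normalized reads, so the change rests on very few reads in control cells. Other large gains also began from few normalized control reads. These were 13.1 at the first Lpp site and 10.3 at the Vcl gain of 1.98. At the Plec gains of 2.64 and 2.06 they were 13.6 and 16.4. Lpp is 599 kb long, and of 134 other genes of like length 32 had at least as many listed sites.

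The remaining LIM genes had fewer sites. All 3 sites of Lima1, which encodes the actin crosslinker EPLIN, fell. The first of them, chr15:99792268-99792909, had levels of 6.02 after 4OHT and 7.30 in control cells in the authors' deposited table (-1.28, FDR 4.44e-05), the largest loss among the member sites. Fhl2, a known SRF target that encodes a LIM-only cofactor, had 1 gain and 3 losses. Its gain, at chr1:43286064-43286512, had levels of 7.78 after 4OHT and 6.23 in control cells (1.55, FDR 2.14e-05 in the authors' deposited table), and a loss was centred 0.936 kb away. At this loss, chr1:43286970-43287479, the levels were 5.95 after 4OHT and 7.09 in control cells (-1.14, authors' FDR 0.00194). Both lay 87.9 to 88.9 kb outside the Fhl2 body. The site at chr1:43261545-43261690, 63.3 kb outside, had levels of 4.56 after 4OHT and 5.67 in control cells (-1.11, authors' FDR 0.00691), and the site inside the gene changed by -0.69.

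The Pdlim proteins carry a PDZ domain beside LIM domains and bind alpha-actinin. Pdlim5 had 1 loss, at chr3:142290169-142291146, with levels of 7.11 after 4OHT and 8.15 in control cells (-1.04, authors' FDR 0.00140), and 1 gain of 1.04. The single site of Pdlim7, chr13:55510363-55511404, was 2.56 kb inside the gene and had levels of 10.19 after 4OHT and 9.31 in control cells in the authors' deposited table (0.88, FDR 1.58e-06). That is a 1.84-fold gain at a site that was already highly accessible.

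Non-muscle myosin II, the motor of contractile bundles, was represented by 5 gains and 3 losses. Myh9 encodes the heavy chain of myosin IIA, and 7 of these 8 sites were nearest to it, 4 higher and 3 lower. Its first by p, chr15:77832559-77832917, had levels of 7.80 after 4OHT and 5.83 in control cells in the authors' deposited table (a log2 change of 1.97, 3.92-fold, FDR 1.18e-05). The other gains were 1.57, 1.17 and 0.75, and the losses -0.71, -0.77 and -0.83. Inside the gene the directions came in runs, as a pair of gains, a pair of losses and another pair of gains along the coordinates. Of 1477 other genes of like length, 18 had at least 7 listed sites. Myh10, for the heavy chain of myosin IIB, had 1 site, chr11:68790648-68791155, with levels of 8.74 after 4OHT and 7.52 in control cells (1.22, FDR 4.03e-05 in the authors' deposited table). Myl9, which encodes a regulatory light chain, had none.

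The actins had 2 listed sites, both at Actb, the gene of cytoplasmic beta-actin, and both rose. The site inside the gene, chr5:142905289-142905445, had levels of 7.52 after 4OHT and 6.22 in control cells in the authors' deposited table (a log2 change of 1.30 at FDR 8.54e-06). The other, 13.0 kb outside, had levels of 10.44 and 9.29 (1.15, FDR 1.29e-05 in that table). Actb has many processed pseudogenes, and the labels do not say how reads with several matching places were treated, so the value inside the gene is uncertain. Actg1, the gene of cytoplasmic gamma-actin, and Acta2, that of smooth muscle alpha-actin, had no listed site.

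Genes of thin-filament proteins and the calponin family had 3 gains and 4 losses. Tropomyosins lie along the filament and set which proteins may bind it. Tpm1 had 1 gain, chr9:67027015-67027453, with levels of 6.14 after 4OHT and 4.68 in control cells (1.46, authors' FDR 0.00849). Tpm4 had 1 loss, chr8:72148853-72149492, with levels of 6.88 after 4OHT and 7.87 in control cells (-0.99, authors' FDR 3.87e-04), and Tpm2 no site. All 3 sites of Cald1, for caldesmon, an inhibitor of actomyosin, fell inside the gene. The first, chr6:34719027-34719584, had levels of 7.10 after 4OHT and 7.94 in control cells in the authors' deposited table (-0.84, FDR 1.32e-04). The others both changed by -1.06, with levels of 5.01 after 4OHT and 6.07 in control cells at chr6:34672071-34672279 (authors' FDR 0.00212) and of 4.56 after 4OHT and 5.62 in control cells at chr6:34612551-34612708 (authors' FDR 0.00518).

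Calponins and transgelins are actin-binding proteins abundant in smooth muscle. The site of Cnn1, chr9:22099828-22100372, had levels of 8.26 after 4OHT and 7.57 in control cells in the authors' deposited table (0.69, FDR 0.00709). Its centre was 0.847 kb past the annotated start, and it was the only member site within 1 kb of its own gene's start, out of 61 sites whose gene has a start in the table (1.64%, against 3.16% of 12780 assigned sites). Tagln2 had a gain 2.03 kb outside its body, chr1:172509333-172509475, with levels of 6.41 after 4OHT and 4.94 in control cells (1.47, authors' FDR 0.00200). Neither Tagln nor Cnn2 had a listed site.

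Genes of actin turnover had 4 gains and 3 losses, of which Wdr1 had 4 gains and 2 losses and Mical2 had 1 loss. Wdr1 encodes a cofactor of cofilin in taking filaments apart. The member site that ranked next after that of Vcl by the authors' p, at 139 of all listed sites, was a loss 45.2 kb outside Wdr1. This site, chr5:38607345-38608845, had levels of 9.14 after 4OHT and 10.02 in control cells in the authors' deposited table (a log2 change of -0.88, FDR 2.41e-10). A gain followed 27.4 kb from the body, chr5:38589988-38590605, with levels of 8.27 after 4OHT and 6.45 in control cells (1.82, FDR 3.14e-07 in the authors' deposited table). Both sites inside Wdr1 rose, by 0.94 and 1.28. Near its ends, a site 5.01 kb outside the body changed by -0.77 and a site 5.57 kb outside the other end by 0.65. Mical2 encodes a monooxygenase that takes actin apart and is known to raise MRTF activity. Its site, chr7:112216525-112217437, lay 8.84 kb outside the gene body and had levels of 8.67 after 4OHT and 9.24 in control cells (-0.57, authors' FDR 0.00588). Cfl1 (cofilin-1), Dstn (destrin) and Cap1 had no listed site.

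Across the members, gains began from lower levels than losses. The median log2 level of sites that rose was 7.52 after 4OHT and 6.06 in control cells, and of sites that fell 6.87 after 4OHT and 7.62 in control cells. All assigned sites showed the same order, with control medians of 5.51 for gains and 7.88 for losses. The control level also enters the change, so level and change are not separate measurements. The median width was 439 bp for member sites that rose and 622.5 bp for those that fell (412 and 554 bp over all assigned sites).

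Most member sites lay inside genes and away from their ends. Of the 81, 58 were inside the body (71.6%, against 57.3% of assigned sites), and 3 were within 1 kb of either end of the body (3.7%, against 4.71%), those of Cnn1 and the pair beside Plec. Adjacent sites of the same gene mostly shared their direction. Of 12 adjacent pairs with centres up to 5 kb apart, 11 went the same way, against 81.1% of 1521 such pairs over all genes, and the exception was the pair near Fhl2. At gaps up to 50 kb, 34 of 45 pairs did (75.6%, against 67.6%). Plec held more of these pairs than any other member, and all 11 of its sites rose. Both shares thus rest in part on that gene, whose pairs all shared a direction. Leaving its pairs out would bring both shares close to those over all genes. Members with a CArG box in a promoter window had 6 gains and 6 losses, those with a window but no box 36 gains and 13 losses, and those without a window 13 gains and 7 losses, beside the background of 54.6% gains. The 12 sites of members with a box came from 4 genes: those of Fermt2 and Vcl all rose, those of Lima1 all fell, and Fhl2 had 1 gain and 3 losses.

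Further adhesion genes that are no members, from a list of 25, had sites at 16, with 40 gains and 10 losses (80% higher, median 1.295). Over all features, 36.4% of protein-coding genes had a site, 54.6% of assigned sites were higher and the median log2 change was 0.68. Tns3, a tensin gene, had the most, with 8 gains and 5 losses. The first gain by p was at Pxn, the paxillin gene (2.18, authors' FDR 2.02e-08), and all 3 of its sites rose. The first loss by p was at the integrin gene Itga1 (-1.23, authors' FDR 2.79e-06). All 6 sites of the tensin gene Tns1 and all 6 of the integrin gene Itga9 rose as well. The single site of Lims2 fell, and Parva had 1 gain and 2 losses. Other actin genes, also 25, had sites at 20, with 27 gains and 13 losses (67.5% higher, median 0.82). The smallest p of that list was at Tmsb4x, the gene of the actin-sequestering thymosin beta-4 (1.98, authors' FDR 1.05e-13). The first loss by p was at Msn, the moesin gene (-1.60, authors' FDR 3.61e-05). Enah, with 2 gains and 3 losses, held the most sites. Vasp, an Ena/VASP family gene of filament elongation, had a gain of 2.60 (authors' FDR 5.09e-08). All 3 sites of Svil fell, as did the single site of Evl.

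Marker genes of cell types were counted in the same way, although a changed site is no measure of expression. All 5 embryonic stem cell markers had listed sites (background 36.4% of genes), with 11 gains and 5 losses (68.8% higher, background 54.6% of sites). Esrrb had the most, with 3 gains and 4 losses, and the smallest p of the list was a loss there (-1.26, authors' FDR 7.68e-10). All 6 sites of Zfp42 rose, the first by p by 0.98 (authors' FDR 1.76e-06). Pou5f1 and Sox2 had 1 gain each, of 0.59 and 1.48, and Nanog had 1 loss (-0.77). Of 7 smooth muscle markers 5 had sites, with 5 gains and 3 losses (62.5% higher), and Myh11 and Actg2 had none. Mylk had the most, with 2 gains and 2 losses, and the smallest p of that list was a loss there (-0.99, authors' FDR 4.01e-08). The single sites of Smtn, Des and Lmod1 rose, by 2.32, 1.63 and 1.44, and that of Synpo2 fell (-1.18). Of 6 fibroblast markers, Col1a1 and Pdgfra had 1 loss each (-1.53 and -0.87), and Col1a2, Col3a1, Thy1 and Dcn had no listed site. The part of other cells in the member sites was not tested.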

How the data were processed

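ATAC-seq was measured in 9 mouse embryonic stem cell libraries (0, 1 and 2 h of 4OHT, 3 each). Bowtie2, bedtools, MACS2 and mm10 are named without roles or versions per the submitters' processing notes. No label or header states the differential test, the normalization, read filters, duplicate and Tn5 handling or depth. The authors' deposited table holds log2 levels (of mean normalized reads per side and over all libraries), a log2 fold (control minus 4OHT, equal to the difference of levels to within 0.01) and p-values with FDR per site, which were copied without refitting. Its largest FDR is 0.01. The mean over all libraries equals a 3 to 6 weighting of control and 4OHT to within 0.00986, so 1 h and 2 h were taken as pooled. Libraries B and C carry the tags B2 and B in their descriptions, which the labels do not explain. Nothing says the letters are separate cultures, so the spread between libraries may be technical. With 1 h and 2 h pooled, spread on the 4OHT side may also hold a difference between the times. As the test is not stated, which spread the p-values measure is unknown.

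From this, changes (4OHT minus control) were computed and each site's centre was given to the nearest RefSeq protein-coding gene body (GRCm38.p6, 21900 genes, the assembly of mm10) within 100 kb. All 36 members were found, and no member site tied with another gene. Starts and strand came from the RefSeq promoter table, which held 32 members and lacks Actb, Plec, Tagln and Tln2. The members and lists were chosen with earlier results of these data known. Named are every member, each member's site of smallest p, the 5 largest gains and losses, and, per further list, the gene with the most sites and the smallest p in each direction. Every marker gene with a site is also named. Further sites of members and the boxes of Actg1, Cnn2 and Myl9 were picked with their values in view. So were the list genes Tns1, Itga9, Lims2, Parva, Vasp, Svil and Evl. A further list of pathway genes is not reported here. Assignment and motif search were tested on simulated data. Tables were handled in pandas 2.3.3 under Python 3.11.15, and figures drawn with matplotlib 3.10.9.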

Additional observations from a re-analysis of the deposited data

How the results depend on the processing

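Of 81 member sites, 55 rose in the main count. Counts of gains fell to 18 with 1 site per gene and 24 with FDR under 0.001. Losses, 26 in the main count, fell to 7 with 1 site per gene, 9 with FDR under 0.001 and 7 with a change of at least 1 in size. These settings keep fewer sites by construction. The share of gains, 67.9%, became 84.8% with a change of at least 1. It lay between 62.9% (without Plec) and 72.7% (FDR under 0.001) in the other settings. These were gene body only, 10 kb, 50 kb, nearest gene of any type, nearest gene end, 1 site per gene and a level of at least 5. The background over all assigned sites moved as well. For gene body only it was 58.4%, beside 69.0% of member sites, and with FDR under 0.001 it was 55.8%, beside 72.7%. The 62.9% without Plec stands beside the main background of 54.6%. The sole nearest gene setting could not differ from the main count, since no member site tied with another gene. The median change, 0.99, became 1.23 with FDR under 0.001 and 1.34 with a change of at least 1, and was 0.96 to 1.22 otherwise. Of the roles, actins, actin turnover and myosin II rest on Actb, Wdr1 and Myh9, without which they had 0, 0 and 1 gains. Without Lpp the LIM genes had 3 gains and 7 losses, without Tln2 the adhesion genes 0 losses, and without Cald1 the thin-filament genes 1. These role counts were chosen after seeing the data.

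No paired analysis was possible because the authors' deposited table holds no values per library, and leaving out each library was not run for the same reason. Depth is unknown, and the table lists changed sites alone.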
